A study of Mus musculus with 12 samples.

Results

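The 6 genes that carry decitabine into a cell and decide what becomes of it were followed in B16F10 cells, an established mouse melanoma line that expresses the pigment cell program. They were the uptake carriers Slc29a1 and Slc29a2, the kinase Dck, the deaminases Cda and Dctd, and the hydrolase Samhd1. The 6 were chosen by name for their known part in deoxycytidine metabolism, by a rule that uses no measured value but with earlier results of these data known, and all 6 were found among the 24421 gene symbols of the count files. RNA was sequenced from 12 libraries in 4 groups of 3 independent repeats each: DMSO control, DAC (5-aza-2'-deoxycytidine, that is decitabine) at 25 nM for 72 h, SFN (sulforaphane, an isothiocyanate of cruciferous vegetables) for 48 h, and DAC+SFN, with DAC at 25 nM for 72 h and SFN at 5 µM in the last 48 h. For SFN alone the sample labels give 5 nM (0.005 µM) while the study's methods give 5 µM, and if the labels hold, the SFN group and the DAC+SFN group had unlike doses of SFN. All groups came from a single cell line in culture, harvested at the same time after plating.

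DAC is a deoxycytidine analog and uses the deoxycytidine salvage pathway. It enters through nucleoside carriers, of which ENT1 (Slc29a1) and ENT2 (Slc29a2) are equilibrative carriers, and DCK adds the phosphate that traps it in the cell and commits it to the active triphosphate, which is built into DNA and captures DNA methyltransferase. CDA deaminates the free nucleoside and DCTD deaminates the monophosphate, and both reactions inactivate the drug, while SAMHD1 cleaves deoxynucleoside triphosphates, the triphosphate of DAC included. The comparison answered whether the transcripts of this pathway differed between cells given DAC, SFN or both and control cells.

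The promoters of the 3 genes called in the combination treatment are shown, because SFN is known as an activator of NRF2, which binds antioxidant response elements. The stretches are upstream of the annotated gene, 5' to 3' on the strand of the gene, from RefSeq on GRCm38.p6: Slc29a1 at chr17:45599619-45599868 (minus strand), Dck at chr5:88764763-88764995 (plus strand) and Cda at chr4:138367993-138368205 (minus strand). Capitals mark a match on either strand to TGACNNNGC, the core of the antioxidant response element.
Slc29a1: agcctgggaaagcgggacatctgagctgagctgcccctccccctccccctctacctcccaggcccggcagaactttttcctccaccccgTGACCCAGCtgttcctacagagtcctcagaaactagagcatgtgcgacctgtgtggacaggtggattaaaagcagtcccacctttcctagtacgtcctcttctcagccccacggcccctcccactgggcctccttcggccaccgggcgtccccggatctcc
Dck: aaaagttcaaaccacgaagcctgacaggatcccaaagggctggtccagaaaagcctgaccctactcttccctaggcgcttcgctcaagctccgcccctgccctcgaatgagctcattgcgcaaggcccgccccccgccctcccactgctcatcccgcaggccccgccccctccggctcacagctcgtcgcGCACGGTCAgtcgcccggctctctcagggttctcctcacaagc
Cda: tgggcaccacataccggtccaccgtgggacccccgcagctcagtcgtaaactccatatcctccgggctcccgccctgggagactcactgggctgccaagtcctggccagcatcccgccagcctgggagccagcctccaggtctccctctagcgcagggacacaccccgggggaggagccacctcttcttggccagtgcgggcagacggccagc
The match in Slc29a1 began 161 bases before the RefSeq start site and that in Dck, on the other strand, 60 bases before it. RefSeq gives 8 promoter windows for Slc29a1, of which 2 held the letters, the other one 10 bases before its start site. Cda, Slc29a2 and Samhd1, with 1 window each, and Dctd, with 3, held no match in the window of 250 bases before to 50 bases after the start. Among all 32851 windows of that length, 12.4% held a match, so the letters are common and mark no site by themselves. None of the 15 windows of the 6 genes held the interferon-stimulated response element, TTTC and TTTC with any 2 bases between them (3.44% of all windows) or the E2F strings TTTCGCGC (0.323%) and TTTGGCGC (0.514%), all searched on both strands. The windows varied in CG dinucleotides, the substrate of DNA methylation: Samhd1 had 29, Dck 23, Slc29a2 20 and Cda 18, where the median of all windows was 7 and the upper quartile 20. Dctd had 7 to 11 over its 3 windows and Slc29a1 3 to 30 over its 8.

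Between 15880957 and 27291436 reads per library were counted on genes, and the 11638 genes reaching 1 CPM (the count scaled to library size) in 3 or more libraries were tested. The CPM values were scaled for library composition by TMM. All 8 markers of the melanocyte lineage passed the filter, with a summed level of 21420 to 30160 CPM, and 0 of 8 markers of other cell types did, with at most 11 counts in a library. In bulk RNA, fewer cells expressing a gene and less RNA per cell cannot be told apart. Calls were made with edgeR's quasi-likelihood test, blocked on the replicate number, where the p-value adjusted over all tested genes by Benjamini-Hochberg was under 0.05.

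In control cells the 6 genes fell into a well expressed and a barely expressed set. Levels per kilobase of exon were 14.1 ± 1.10 CPM per kb for Dck and 14.03 ± 1.25 for Slc29a1 (SD, n = 3), at the 67.9th and 67.7th percentile of the tested genes, and these neighbours did not differ beyond their spread. Dctd followed with 9.30 ± 1.08 CPM per kb and Samhd1 with 6.44 ± 0.166, on either side of the median tested gene at 7.62. Cda, at 0.675 ± 0.0457 CPM per kb, and Slc29a2, at 0.560 ± 0.0882, lay at the 8.81st and 7.69th percentile. The order of Dctd and Samhd1 depends on the length used. Over the 12 libraries Dctd was above Samhd1 per kilobase of exon (10.16 and 6.46 CPM per kb). With the longest transcript it was below Samhd1 (13.89 and 15.05). Slc29a1 was above Dck over the 12 libraries with the exon length (16.74 and 13.04) and with the longest transcript (30.28 and 16.02). All 6 genes passed the filter on low counts, Cda with 1 CPM in 7 of the 12 libraries and the others in 12. For Cda these 7 libraries were all drug-treated, and every control lay below 1 CPM (0.644 to 0.731).

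**Figure D1:**
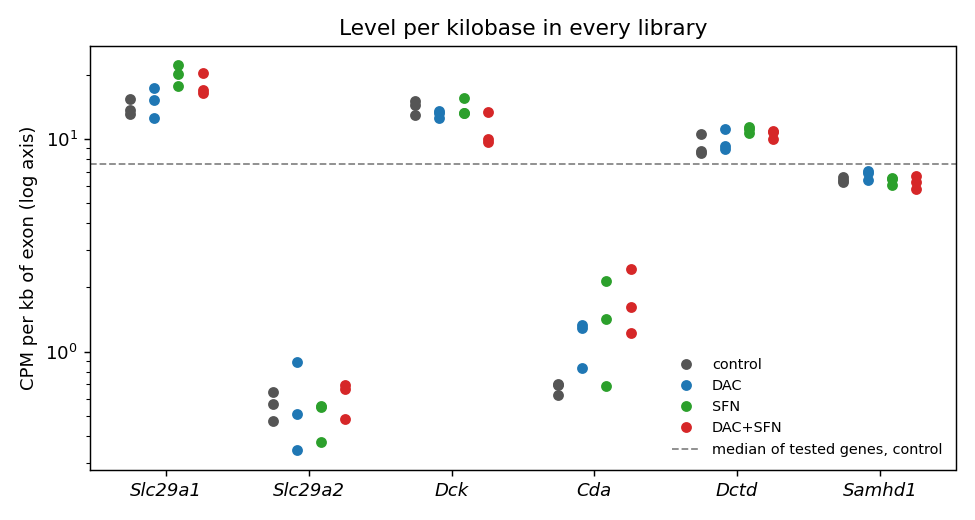
Level of each gene in CPM per kilobase of exon (log axis) in every library, coloured by group, with the median of the tested genes in control as a dashed line. Dck, Slc29a1, Dctd and Samhd1 sit near or above the median of 7.62, and Cda and Slc29a2 well below it in every group.

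Slc29a1 encodes ENT1, the broad-specificity carrier at the plasma membrane (chr17:45585200-45599606, minus strand, mm10). It was higher in all SFN-treated cultures. Its level in replicates 1, 2 and 3 was 54.7, 61.9 and 52.2 CPM in control and 50.1, 69.4 and 60.7 CPM in the DAC group. In the SFN group it was 71.2, 88.9 and 80.4 CPM, and in the combination 65.6, 82.0 and 68.2 CPM. Every SFN and every DAC+SFN library lay above every control library, and the DAC libraries spread across the controls. Replicate 2 was the highest library in each of the 4 groups. Against control, Slc29a1 rose 1.42-fold with SFN (log2 fold change 0.51, SE 0.0666, adjusted p = 0.00018, higher in 3 of 3 replicates) and 1.28-fold with DAC+SFN (0.35, SE 0.0669, adjusted p = 0.00129, 3 of 3). With DAC it was 1.06-fold of control (95% interval 0.96 to 1.17, adjusted p = 0.72). Directly compared, it was higher with SFN than with DAC (1.34-fold, adjusted p = 0.00152) and with DAC+SFN than with DAC (1.20-fold, adjusted p = 0.0151), and the DAC+SFN to SFN ratio of 0.897 (95% interval 0.814 to 0.989) had an adjusted p of 0.225. The calls rest on the block: without it the adjusted p-values were 0.119 with SFN, 0.096 with DAC+SFN, 0.337 for SFN against DAC and 0.327 for DAC+SFN against DAC. The DAC+SFN against DAC call was also lost without DAC replicate 1 (0.101), DAC+SFN replicate 1 (0.067) or DAC+SFN replicate 2 (0.0532). An antisense gene, Gm17080, shares 275 bases (6.86%) of the exons of Slc29a1 and has no row of its own in the count files, and whether the counting used strand is not given in the sources used here.

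Slc29a2 encodes ENT2, the second equilibrative carrier (chr19:5023860-5031972, plus strand). It was scarce and no change was called. Its counts ran from 25 to 44 per library. Levels in replicates 1, 2 and 3 were 1.70, 1.42 and 1.95 CPM in control, 1.03, 2.68 and 1.54 in the DAC group, 1.65, 1.13 and 1.68 in the SFN group, and 1.46, 2.11 and 2.01 in the combination. The 4 groups overlapped throughout, and the lowest and the highest library were both DAC libraries. Relative to control the fold was 0.985 with DAC (95% interval 0.626 to 1.55), 0.874 with SFN (0.554 to 1.38) and 1.10 with DAC+SFN (0.70 to 1.71). Changes inside these intervals are therefore not excluded.

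**Figure D2:**
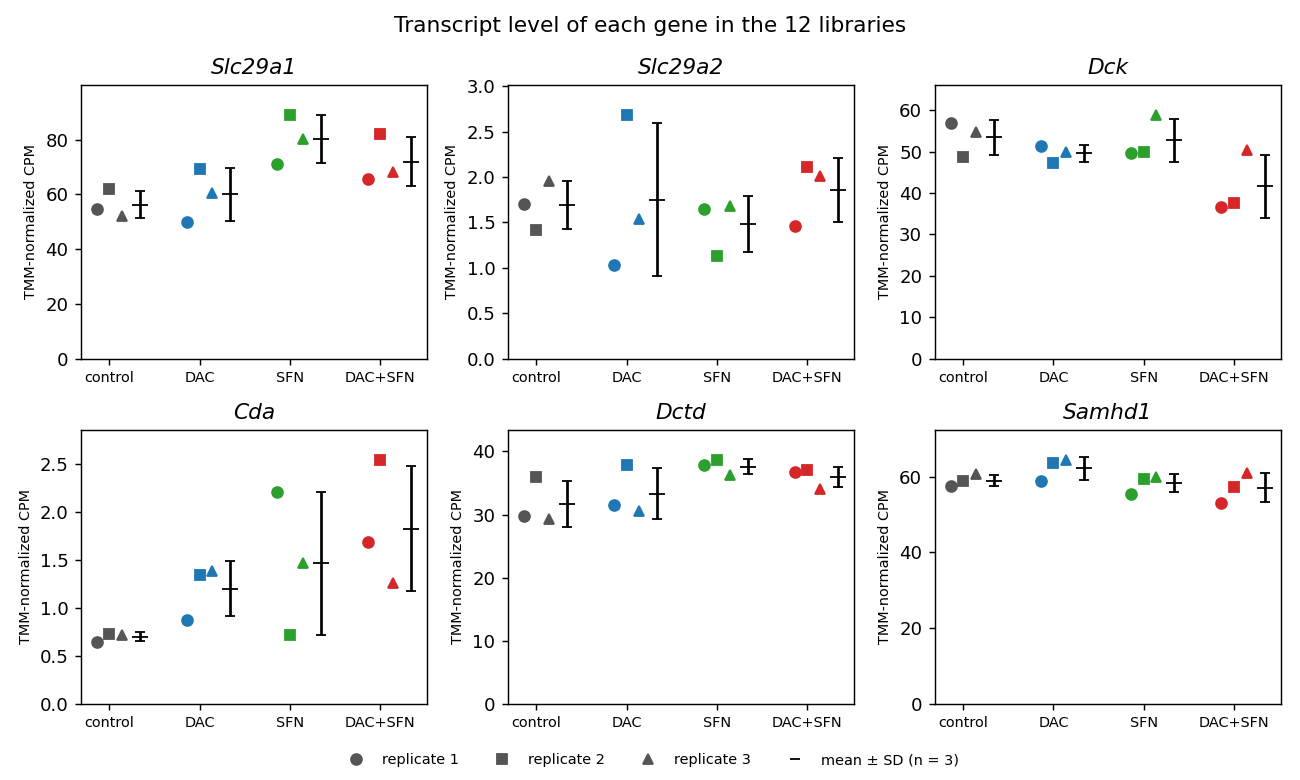
TMM-normalized CPM of the 6 genes in the 12 libraries, 1 panel per gene, with replicates 1 to 3 as circles, squares and triangles and the mean ± SD (n = 3) beside each group. Slc29a1 is above all controls in the SFN and DAC+SFN groups, Dck is lowest in DAC+SFN replicates 1 and 2, and Cda is above all controls with DAC and DAC+SFN.

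Dck, the kinase on which activation of DAC depends (chr5:88764996-88783281, plus strand), was lower in the combination treatment. Its level in replicates 1, 2 and 3 was 56.8, 48.8 and 54.7 CPM in control, 51.3, 47.3 and 50.01 in the DAC group, and 49.7, 49.8 and 58.8 in the SFN group. With DAC+SFN it was 36.7, 37.6 and 50.3 CPM. DAC+SFN replicates 1 and 2 were below every other library, while replicate 3 lay among the controls, so these groups overlapped. Within each replicate number DAC+SFN was below its own control. Dck fell to 0.774-fold of control with DAC+SFN (95% interval 0.681 to 0.879, log2 fold change -0.37, SE 0.0866, adjusted p = 0.00498, lower in 3 of 3 replicates). With DAC alone it was 0.927-fold (0.816 to 1.05, adjusted p = 0.72) and with SFN alone 0.986-fold (0.869 to 1.12, adjusted p = 0.907). The differences between DAC+SFN and the single treatments came close to the threshold and missed it: 0.835-fold of DAC (adjusted p = 0.0546) and 0.785-fold of SFN (adjusted p = 0.0553). These last 2 calls depended on the settings, since DESeq2 called both (0.0458 and 0.0174), as did edgeR without DAC+SFN replicate 3 (0.00374 and 0.00625) or without DAC replicate 3 (0.0265 and 0.0344). The fall against control was called when any 1 of the 12 libraries was left out, but not without the block (0.0702), without replicate 1 (0.122) or without replicate 2 (0.0644).

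Cda encodes cytidine deaminase, which inactivates DAC (chr4:138338424-138367992, minus strand), and its transcript was rare in these cells. Its level in replicates 1, 2 and 3 was 0.644, 0.731 and 0.719 CPM in control, from 14, 17 and 14 counts. With DAC it was 0.869, 1.34 and 1.39 CPM (21, 21 and 37 counts), and with SFN 2.21, 0.715 and 1.47 CPM (47, 19 and 36 counts). With DAC+SFN it was 1.68, 2.54 and 1.26 CPM (37, 53 and 27 counts). All DAC and all DAC+SFN libraries were above all controls, while SFN replicate 2 lay among them. The rise passed the test with DAC+SFN, at 2.60-fold of control (95% interval 1.41 to 4.78, log2 fold change 1.38, SE 0.412, adjusted p = 0.0197, higher in 3 of 3 replicates). This rise was the sole change above 2-fold among the 6 genes that passed the test. Cda had reached the filter of 1 CPM in drug-treated libraries only. In edgeR the DAC+SFN call was kept with no filter (adjusted p = 0.00355). It was also kept with at least 10 counts required in every library (0.0178). With SFN Cda was 2.04-fold of control (1.09 to 3.82, adjusted p = 0.121) and with DAC 1.71-fold (0.889 to 3.27, adjusted p = 0.59), and neither passed. Without SFN replicate 2, the SFN difference passed (adjusted p = 0.0178, log2 fold change 1.54). The DAC+SFN call was lost without the block (0.0533), without control replicate 1 (0.0844) or 2 (0.0613), and without DAC+SFN replicate 2 (0.139, log2 fold change 0.92). From these few counts the level in the drug groups is known only within the wide intervals above.

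Dctd encodes deoxycytidylate deaminase, which acts on the monophosphate (chr8:48099092-48153233, plus strand). Its level in replicates 1, 2 and 3 was 29.8, 35.9 and 29.3 CPM in control, 31.5, 37.9 and 30.6 in the DAC group, 37.9, 38.6 and 36.2 in the SFN group, and 36.7, 37.1 and 34.04 in the combination. The SFN libraries were just above the highest control, and the DAC+SFN libraries overlapped the controls through control replicate 2. Dctd rose 1.19-fold with SFN (95% interval 1.07 to 1.33, log2 fold change 0.25, SE 0.0738, adjusted p = 0.0359, higher in 3 of 3 replicates). With DAC+SFN it was 1.14-fold of control (1.02 to 1.27, adjusted p = 0.0696) and with DAC 1.05-fold (0.939 to 1.17, adjusted p = 0.805). The SFN call was near the threshold. It was lost without the block (0.285), with DESeq2 (0.0518), and without control replicate 1 (0.169), 2 (0.055) or 3 (0.112) or SFN replicate 1 (0.151), 2 (0.0608) or 3 (0.139).

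Samhd1 encodes the triphosphate hydrolase and is also known as an interferon-inducible gene (chr2:157097533-157135265, minus strand). It varied least of the 6 over the 12 libraries, from 53.1 to 64.3 CPM. Its level in replicates 1, 2 and 3 was 57.6, 58.7 and 60.6 CPM in control, 58.8, 63.5 and 64.3 in the DAC group, 55.4, 59.4 and 59.8 in the SFN group, and 53.1, 57.3 and 61.0 in the combination. All groups overlapped, and replicate 1 was the lowest library of each group. The intervals were narrow: 1.05-fold of control with DAC (0.97 to 1.14), 0.987-fold with SFN (0.909 to 1.07) and 0.968-fold with DAC+SFN (0.891 to 1.05). Interferon-stimulated genes in the same libraries differed by group. In DAC against control, 9 of 10 had an unadjusted p under 0.05, against 10.1% of all tested genes. Of the 10, 0 passed edgeR's adjusted threshold (0.18% of all tested genes) and 2 passed in DESeq2. Their median log2 fold change was 0.91. With DAC+SFN, 5 of the 10 rose (17% of all tested genes), and 1 without the block. Among the 5 were Ifit1 (3.29-fold, adjusted p = 4.12e-05) and Rsad2 (1.51-fold, adjusted p = 0.0391). Their summed level was 168.5 to 355.7 CPM in control, 202.2 to 602.9 in the DAC group, 190.2 to 257.5 in the SFN group and 246.5 to 490.1 in the combination.

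**Figure D3:**
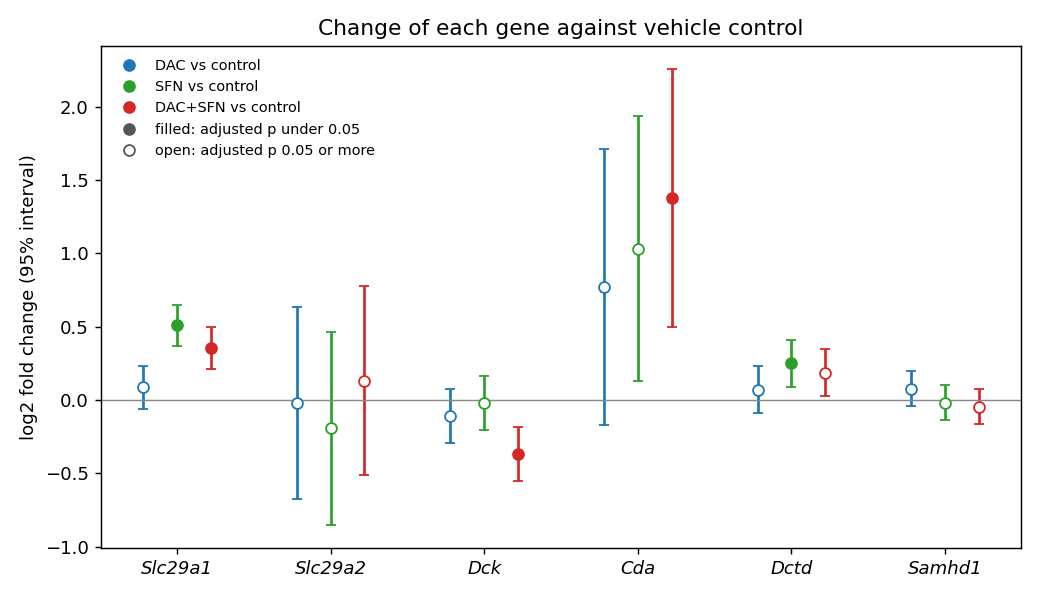
Log2 fold change of the 6 genes against control with its 95% interval, for DAC (blue), SFN (green) and DAC+SFN (red), where filled points passed an adjusted p under 0.05. Slc29a1 is filled in SFN and DAC+SFN, Dctd in SFN, Dck and Cda in DAC+SFN, and no gene is filled in DAC.

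Counted by treatment, DAC alone called 0 of the 6 genes in edgeR, against 0.18% of all tested genes, and 0 in DESeq2. At an unadjusted p under 0.05 it had 0 of 6, against 10.1% of all genes. SFN alone called 2 of 6, Slc29a1 and Dctd, against a background of 13.9%. The combination treatment called 3 of 6, Slc29a1 and Cda higher and Dck lower, against 31.6%. Of these, Cda had reached the filter on low counts in drug-treated libraries only. Past a fold of 2, 0 of 6 were called with SFN (1.28% of all genes) and 1 of 6 with DAC+SFN (2.66%). Over only 6 genes these shares are a description, and nothing is called particular to the genes from them. Groups did not overlap for 1 gene in DAC against control (Cda, with 8.43% of all genes doing so), 2 in SFN (20.8%) and 2 in DAC+SFN (29.4%). The median log2 fold change of the 6 was 0.07 with DAC, 0.12 with SFN and 0.16 with DAC+SFN, and that of all tested genes was within 0.01 of 0 in every comparison. All 3 comparisons share the same control libraries. Without the block, 0 of the 6 genes were called in any comparison, and the calls over all genes went from 1619 to 23 with SFN and from 3683 to 1201 with DAC+SFN.

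Between treatments, 1 of 6 genes was called in DAC+SFN against DAC (Slc29a1, background 16.1%) and 1 of 6 in SFN against DAC (Slc29a1 again, background 5.89%). The groups did not overlap for Slc29a1 in SFN against DAC (12.9% of all genes), and overlapped for all 6 genes in DAC+SFN against DAC (18.2% of all genes did not) and against SFN (12.1%). For DAC+SFN against SFN, 0 of 6 were called by edgeR (background 1.61%) and 1 by DESeq2, and 2 had an unadjusted p under 0.05 (17.8%). The interaction asked whether the effect of both drugs differed from the sum of the single effects on the log2 scale. It gave 0 calls among the 6 in edgeR (1 at an unadjusted p under 0.05, 0 in DESeq2), with 0% of all genes called and 5.87% at an unadjusted p under 0.05. The estimates were -0.24 for Slc29a1 (SE 0.0942, adjusted p = 0.847), -0.24 for Dck (SE 0.122, adjusted p = 0.883) and -0.42 for Cda (SE 0.571, adjusted p = 0.981). If the SFN dose differed as the labels state, the interaction and the contrast of DAC+SFN with SFN mix dose and drug, which cannot be told apart.

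The replicate number itself moved Slc29a1 (F test, adjusted p = 0.00212), whose mean over the 4 groups was 60.4, 75.5 and 65.4 CPM in replicates 1, 2 and 3, and 33.9% of all genes passed the same test. None of the other 5 genes passed it, Dctd with an adjusted p of 0.0522 and Dck of 0.0642 being nearest. Library numbers in the labels follow the replicate number, so the culture repeat and a library batch cannot be told apart.

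The balance between these transcripts was described within each library by ratios of reads per kilobase of exon, which need no scaling between libraries. The ratio of Dck to Slc29a1 had a median of 1.10 in control (0.836 to 1.11), 0.874 in the DAC group (0.723 to 1.09), 0.741 in the SFN group (0.594 to 0.775) and 0.593 in the combination (0.486 to 0.782). Every SFN and DAC+SFN library was below the lowest control. For Dck to Cda, the median was 20.8 in control (18.3 to 24.1), 9.88 in the DAC group (9.66 to 16.2), 10.9 in the SFN group (6.16 to 19.1) and 5.96 in the combination (4.06 to 10.9). Only SFN replicate 2 reached the control range. Dck to Dctd had medians of 1.68, 1.47, 1.18 and 0.914 in control, DAC, SFN and DAC+SFN. Samhd1 to Dck had medians of 0.458, 0.531, 0.461 and 0.598. The ratios are made of the values above and are given as a description, with no test.

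**Figure D4:**
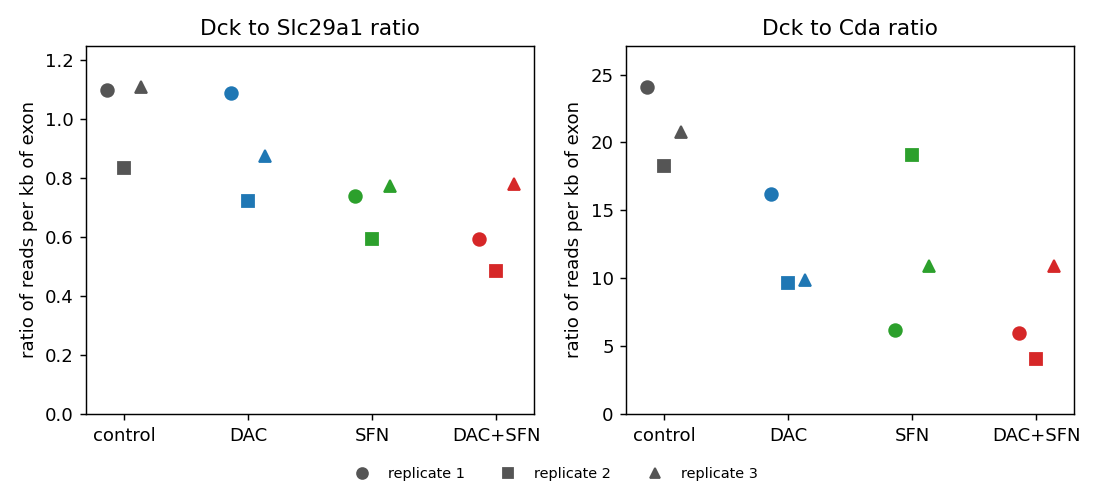
Ratio of reads per kilobase of exon of Dck to Slc29a1 (left) and of Dck to Cda (right) in each library, by group, with replicates 1 to 3 as circles, squares and triangles. The DAC+SFN libraries, at 0.486 to 0.782 and 4.06 to 10.9, are below all control libraries in both panels and overlap the DAC and SFN libraries.

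For each gene the tested genes with the most similar profile were found by Pearson's r over the 12 libraries after the mean of each replicate number was removed. They are descriptions over libraries that share treatments, with no p. For Slc29a1 they were Pcolce (r = 0.96), Atp1b3 (0.959) and Tubb6 (0.955). Dck was most like Hdac2 (0.984), Spc25 (0.971) and Tmem165 (0.968), and Dctd most like Snora61 (0.97), Pa2g4 (0.955) and Idh3a (0.953). Cda went with Cacfd1 (0.955), Rasl11a (0.918) and Mettl3 (0.909), Samhd1 with Mapk12 (0.944), Tmem151b (0.941) and Hebp1 (0.934), and Slc29a2 with Rbm15 (0.911), Nox4 (0.881) and Agpat4 (0.816). Snora61, a small nucleolar RNA, had a mean of only 0.936 CPM.

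The rest of the nucleoside pathway was taken from 8 lists of other genes, with 42 of 55 genes tested. Over these, 4 rose and 3 fell with SFN (all tested genes 8.27% and 5.65%) and 7 rose and 12 fell with DAC+SFN (17% and 14.7%). With DAC, 0 of 42 passed in edgeR (0.18% of all tested genes) and 0 in DESeq2. At an unadjusted p under 0.05 there were 7, against 10.1% of all tested genes. The median log2 fold change was 0.02 with DAC, 0.03 with SFN and -0.10 with DAC+SFN. Without the block the SFN calls were 0 and 0 and those of DAC+SFN 0 higher and 4 lower, and DESeq2 called 4 higher and 3 lower with SFN, and 4 higher and 12 lower with DAC+SFN.

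Among the other carriers, the concentrative carriers Slc28a1, Slc28a2 and Slc28a3 had at most 1, 3 and 4 counts in a library, where Slc29a1 had 1017 to 2361. Slc29a3, the carrier of intracellular membranes, was the 1 of 5 tested and fell with SFN (log2 fold change -0.26, adjusted p = 0.0268). Of the exporters, 4 were tested. Abcg2 rose with SFN (0.39, adjusted p = 0.0266) and DAC+SFN (0.45, adjusted p = 0.00644) while Abcc5 fell (-0.23 and -0.17, adjusted p = 0.0169 and 0.0397). Over all tested genes, 8.27% rose and 5.65% fell with SFN, and 17% rose and 14.7% fell with DAC+SFN.

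Of 14 tested kinases that work beside and after DCK, 3 rose and 1 fell with SFN (all tested genes 8.27% and 5.65%), and 2 rose and 3 fell with DAC+SFN (17% and 14.7%). The other kinases did not pass the test. Nme2, a nucleoside diphosphate kinase, rose in both (0.38 and 0.23 on the log2 scale, adjusted p = 0.00121 and 0.0125). Tk1, the thymidine salvage kinase, fell with DAC+SFN (-0.31, adjusted p = 0.00274), as did Dtymk, thymidylate kinase (-0.18, adjusted p = 0.031). Cmpk2, the mitochondrial kinase that is also interferon-inducible, fell with SFN (-0.77, adjusted p = 0.0186). Among 5 tested nucleotidases, which remove the phosphate, Nt5c rose (0.23, adjusted p = 0.0437) and Nt5c3b fell (-0.21, adjusted p = 0.0205) with DAC+SFN (all tested genes 17% and 14.7%). DESeq2 called 0 of these higher and 1 lower, and 0 were called without the block. Upp1, uridine phosphorylase, rose with DAC+SFN (0.80, adjusted p = 0.0418), the 1 call among 2 tested deaminases and phosphorylases (17% of all tested genes rose). The Upp1 call was lost in DESeq2 and without the block, and its counts were 15 to 65 per library.

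Of 6 tested genes of ribonucleotide reductase and thymidylate synthesis, which supply the normal deoxynucleotide pool, 5 fell and 1 rose with DAC+SFN (all tested genes 14.7% and 17%), and the median log2 fold change was -0.29. In DESeq2 5 fell and 0 rose, and without the block 2 fell and 0 rose. Tyms, thymidylate synthase, fell by 0.51 on the log2 scale (adjusted p = 0.00243), and Rrm1 and Rrm2, the reductase subunits, by 0.31 and 0.21 (adjusted p = 0.0067 and 0.0425). Dut, the dUTP hydrolase, fell by 0.43 (adjusted p = 0.00027), the 1 call of 5 pool hydrolases (14.7% of all tested genes fell). Ctps2 fell (-0.38, adjusted p = 0.0126) and Ctps rose (0.17, adjusted p = 0.0304) among 5 genes of de novo pyrimidine synthesis (14.7% and 17%). Many of these are S phase genes. In the same libraries 9 of 10 proliferation genes fell and 1 rose with DAC+SFN (all tested genes 14.7% and 17%), while 9 fell and 0 rose in DESeq2 and 4 fell and 0 rose without the block. Their summed level was 2952 to 3257 CPM with DAC+SFN against 3712 to 4079 in control, 3188 to 3668 with DAC and 3450 to 3757 with SFN. The part of this in the fall of Dck was not tested.

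NRF2 targets, the known response to SFN, moved with the SFN groups in which Slc29a1 rose. Of 8 tested, 7 rose with SFN (8.27% of all tested genes) and 8 with DAC+SFN (17%). With DAC, 0 passed in edgeR (0.18%) and 0 in DESeq2, and 2 had an unadjusted p under 0.05 (10.1%). Without the block 2 rose with SFN and 7 with DAC+SFN. Nqo1, the quinone reductase, rose 4.03-fold with SFN (adjusted p = 1.16e-06) and 4.36-fold with DAC+SFN (adjusted p = 3.19e-07). Their summed level was 1693 to 2856 CPM with SFN and 1796 to 2914 with DAC+SFN, against 1073 to 1366 in control and 1220 to 1396 in the DAC group. Their part in the rises of Slc29a1, Dctd and Cda was not tested.

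**Figure D5:**
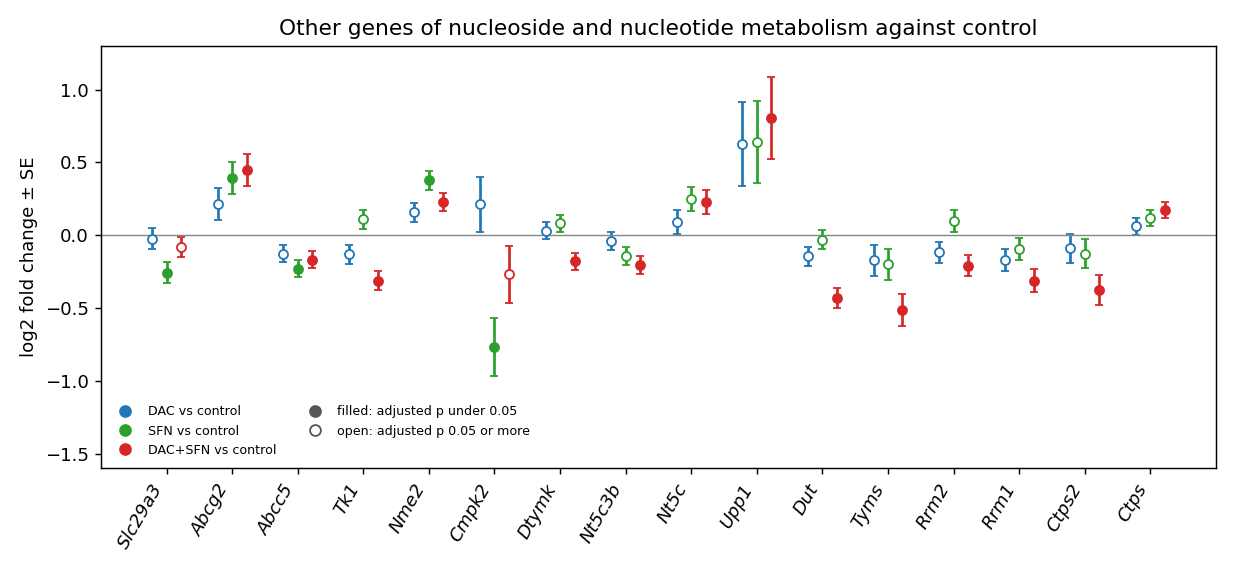
Log2 fold change ± SE against control of the 16 other genes of nucleoside and nucleotide metabolism named in the text, each of which passed the test in at least 1 comparison, for DAC (blue), SFN (green) and DAC+SFN (red), filled where the adjusted p was under 0.05. Dut, Tyms, Rrm1 and Rrm2 are filled below 0 in DAC+SFN, and no gene is filled in DAC.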

How the data were processed

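RNA from 12 cultures of B16F10 cells was sequenced (3 independent repeats in each of 4 groups, from the labels). The authors deposited raw counts per gene symbol, 1 file per sample. According to the submitters' processing notes the reads went through FastQC 0.11.7, Trimmomatic 0.38, TopHat2 2.1.1 (mm10) and HTSeq; the annotation and strand setting of the counting are not given in the sources used here. Total counts were 15880957 to 27291436 (median 21949304.5), so 1 CPM stands for about 16 to 27 counts. Replicates were not copies of each other (chi-square of 13.2 to 35.9 per gene).

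Genes reaching 1 CPM in 3 or more libraries (11638 of 24421 symbols) were scaled by TMM and tested with glmQLFTest in edgeR 4.0.16 (R 4.3.3), with 4 groups and the replicate number as a block, since the study corrected for a batch it does not name. Deviations of the same-numbered samples correlated (18 pairs, mean r 0.544, 0.27 to 0.732). SE is the size of the log2 fold change over the root of F, and fold changes carry a prior count of 0.125. Gene lengths and positions were from GENCODE M21 (mm10), and 95.7% of the symbols matched. Alternatives were DESeq2 1.42.0, other filters, normalizations and fits, no block, a fold threshold and leaving out samples. The fit was tested on simulated data. Plots were made in Python 3.11.15 (matplotlib 3.10.9).

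The 6 genes and the lists were chosen with earlier results of these data known. The genes of each list named in the text were those called in any comparison, at most the 4 with the smallest p, and for similar profiles the 3 genes with the highest r. The values of 1 gene that this rule names are not reported here.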

Additional observations from a re-analysis of the deposited data

How the results depend on the processing

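The 7 called results lost their call in 31 of 175 alternative values: Dctd with SFN in 12 of 25, Slc29a1 in DAC+SFN against DAC in 7, Cda with DAC+SFN in 6, Dck with DAC+SFN in 3 and the other Slc29a1 calls in 1 each. Over all 42 gene-by-comparison results, most of them without a call, 971 of 1042 values kept their direction and side of the threshold, 14 gained a call and 26 reversed, all of results without a call. The largest dependence was on the replicate block. With no replicate block, the number of the 6 genes called was 0 with SFN, 0 with DAC+SFN, 0 in DAC+SFN against DAC and 0 in SFN against DAC, and calls over all genes were 0 with DAC (21 with the block), 23 with SFN, 1201 with DAC+SFN, 20 in DAC+SFN against DAC (1879), 0 in DAC+SFN against SFN (187) and 7 in SFN against DAC (685). The blocked fit was kept because the repeats pair the samples. The cause was not tested.

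DESeq2 called 1 gene with SFN, 2 in DAC+SFN against DAC and 1 in DAC+SFN against SFN, and so did edgeR with no filter on low counts, which called 2 genes for the replicate number. The robust fit called 2 in DAC+SFN against DAC and 1 in DAC+SFN against SFN. With only the groups compared in the fit, DAC+SFN against DAC gave 0 and DAC+SFN against SFN gave 1. With a fold change above 2 required, the counts were 0 with SFN, 1 with DAC+SFN, 0 in DAC+SFN against DAC and 0 in SFN against DAC. Total counts without TMM, an alternative chosen after seeing the data, gave 2 for the replicate number. The cause of these shifts was not tested.

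With 1 library or 1 replicate number left out, the counts were 1 to 2 with SFN, 1 to 3 with DAC+SFN, 0 to 2 in DAC+SFN against DAC, 0 to 1 in DAC+SFN against SFN, 1 in SFN against DAC and 0 to 3 for the replicate number, and 0 with DAC and for the interaction. Slc29a1 in SFN, DAC+SFN and SFN against DAC kept its call in each of these. Where an arm was left with fewer libraries, its spread was taken from the other groups.

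Reversed directions were in results without a call. Slc29a2 in DAC against control was 0.0191 without the block (-0.0218 with it). With samples left out, log2 fold changes that turned sign were Slc29a2 in DAC against control (-0.0218 in full, -0.51 to 0.28), Dck in SFN against control (-0.0207 in full, -0.0911 to 0.0666), Samhd1 in SFN against control (-0.0186 in full, -0.0445 to 0.0065), Slc29a2 in DAC+SFN against control (0.13 in full, -0.0935 to 0.30), Slc29a2 in DAC+SFN against DAC (0.15 in full, -0.10 to 0.58), Cda in SFN against DAC (0.26 in full, -0.33 to 0.74), Slc29a2 in SFN against DAC (-0.17 in full, -0.54 to 0.36), Cda in the interaction (-0.42 in full, -1.06 to 0.0833), Slc29a2 in SFN against control (-0.19 in full, -0.43 to 0.0834) and Cda in DAC+SFN against SFN (0.35 in full, -0.31 to 0.85). Low counts limit Cda (14 to 53 per library) and Slc29a2 (25 to 44), whose intervals span wide ranges.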
